A study of Saccharomyces cerevisiae with 16 samples.

Results

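The 32 genes described here encode aminoacyl-tRNA synthetases of budding yeast, 18 that serve the cytosol and 14 that serve the mitochondria, and they were taken by name from a fixed list out of 6002 nuclear protein-coding genes. All 32 lie on nuclear chromosomes, including those whose products are imported into mitochondria. Within the cytosolic group, ALA1, GRS1, HTS1 and VAS1 each also supply the mitochondrial form of their enzyme and are called dual below.

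An aminoacyl-tRNA synthetase joins 1 amino acid to its tRNAs, the step that gives the ribosome its charged substrates. Yeast keeps separate nuclear genes for many of the cytosolic and mitochondrial enzymes of the same amino acid, because mitochondria translate their own small set of respiratory-chain mRNAs. In the yeast metabolic cycle, cells in continuous culture with limiting glucose alternate between high and low oxygen consumption. Its phases are named OX (oxidative), RB (building) and RC (charging), and OX is known for the expression of ribosome biogenesis and translation genes. Acetylation of lysine 18 of histone H3 (H3K18ac) is a mark of active promoters and gene starts, placed in yeast mainly by the acetyltransferase Gcn5, a subunit of the SAGA complex.

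H3K18ac was measured by chromatin immunoprecipitation and sequencing in 16 libraries, each of a single time point, the first at 48.32 h and the last at 51.95 h. Every library came from strain ZKY329, a CEN.PK background of mating type MATa that carries SPT7-FLAG::natMX, so the FLAG tag on Spt7, a SAGA subunit, was shared by all samples and no strain without it was measured. The OX phase held time points 3 to 5 (n = 3), RB held time points 6 to 11 (n = 6), and RC held time points 1, 2 and 12 to 16 (n = 7), as placed by the study's sampling diagram. The comparisons ask in which phase of the cycle H3K18ac at the synthetase genes was higher or lower, and whether the cytosolic and mitochondrial genes followed the same course.

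Total coverage was 332618297 to 477345719 per library, or 27.5 to 39.4 reads per base of the nuclear genome, with a ceiling of 102 reads per base in every library. Each value below is the mean coverage of the 300 bp downstream of the start codon (upstream where stated) divided by that library's nuclear mean, and is called relative coverage. A relative coverage of 1 is the genome's average. Each time point was a single library, so the time points of a phase stood in for replicates. The p-values therefore measure only the spread between time points of a phase, which includes drift along the cycle. RC joins time points 1 and 2, before OX, with 12 to 16. Within RB the median of the cytosolic genes fell from 1.98 to 1.24. These ordered time points were treated as independent. Coverage was not divided by that of total H3, so acetylation and nucleosome density cannot be told apart. Likewise, more cells carrying the mark and more of the mark per cell cannot be told apart.

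H3K18ac at the cytosolic synthetase genes was highest in OX and lowest early in RC, whereas the mitochondrial genes as a group did not share that course. The median relative coverage of the 18 cytosolic genes averaged 2.55 ± 0.345 in OX, 1.73 ± 0.277 in RB and 1.42 ± 0.248 in RC (SD over 3, 6 and 7 time points). For the 14 mitochondrial genes the same median averaged 1.79 ± 0.152 in OX, 1.80 ± 0.0930 in RB and 2.02 ± 0.107 in RC. The median of all genes tested averaged 1.85 ± 0.0764 in OX, 1.67 ± 0.0562 in RB and 1.74 ± 0.107 in RC. These medians are descriptions, and no test was run over either group as a whole.

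Along the series, the cytosolic median was 1.57 and 1.82 at time points 1 and 2, then 2.25, 2.93 and 2.46 at the OX time points 3, 4 and 5. Through RB it was 1.98, 1.94, 1.82, 1.81, 1.58 and 1.24, and from time point 12 to 16 it was 1.00, 1.38, 1.32, 1.43 and 1.43. The mitochondrial median was 2.08 and 2.09 at time points 1 and 2, 1.95, 1.77 and 1.64 in OX, 1.76, 1.84, 1.76, 1.84, 1.66 and 1.93 in RB, and 1.96, 2.12, 2.12, 1.93 and 1.85 over the last 5 time points. The cytosolic median lay 0.70 above the mitochondrial one on the log2 scale at time point 4, and at time point 12 the difference was -0.90. The cytosolic level was already low at time point 11, the last of RB.

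**Figure D1:**
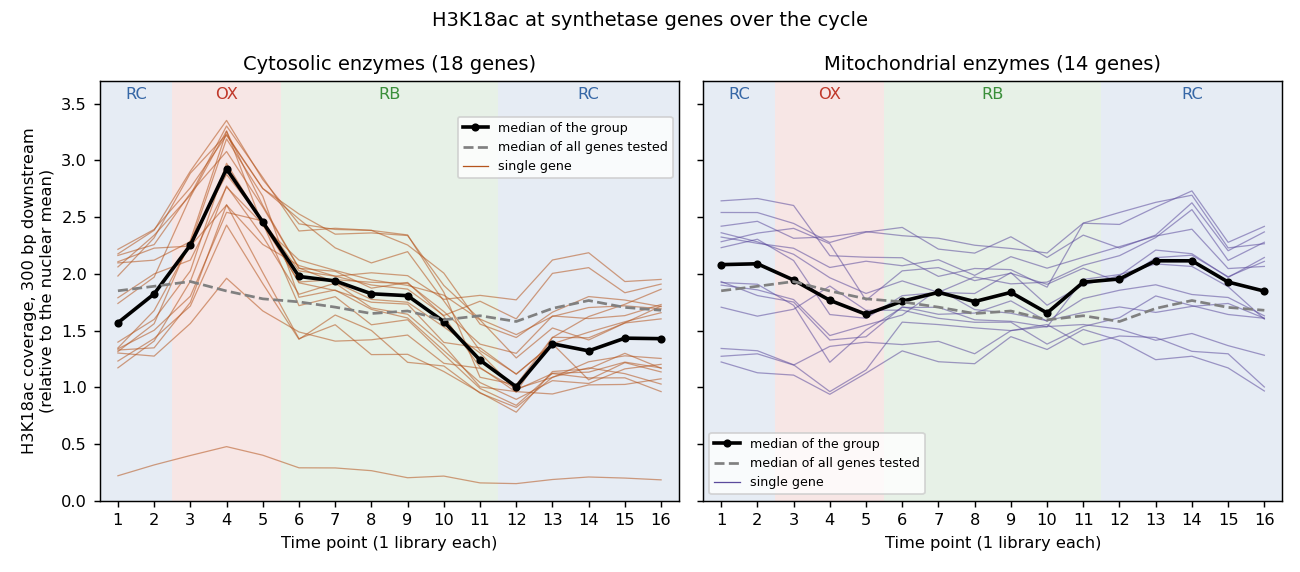
Relative H3K18ac coverage of the 300 bp downstream of the start codon (y axis, 1 is the nuclear mean) at the 16 time points (x axis), with a thin line for each gene, a black line for the median of the group, a dashed grey line for the median of all genes tested and shading for the phases. The cytosolic median peaked at 2.93 at time point 4 and reached 1.00 at time point 12, while the mitochondrial median stayed between 1.64 and 2.12; the cytosolic line far below the others is KRS1.

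The single genes behaved alike within the cytosolic group. All 18 had their highest downstream coverage at time point 4, against 31.2% of all genes tested and 1 mitochondrial gene, ISM1. The lowest time point was 12 in 15 of them, 13 in SES1, 14 in GRS1 and 16 in FRS1. The share of all genes lowest at time point 12 was not computed, but the median of all genes was also lowest there, at 1.58. The highest coverage of a gene was 1.47 to 3.57 times its lowest (median 2.92) among cytosolic genes and 1.20 to 1.71 times (median 1.39) among mitochondrial genes. The median log2 range of a gene over the series was 1.38 in the cytosolic group, 0.45 in the mitochondrial group and 0.60 over all genes. Mitochondrial genes had no common peak, with 5 of 14 highest at time point 14 and 5 of 14 lowest at time point 4. The shares of all genes for these last counts were not computed either.

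**Figure D2:**
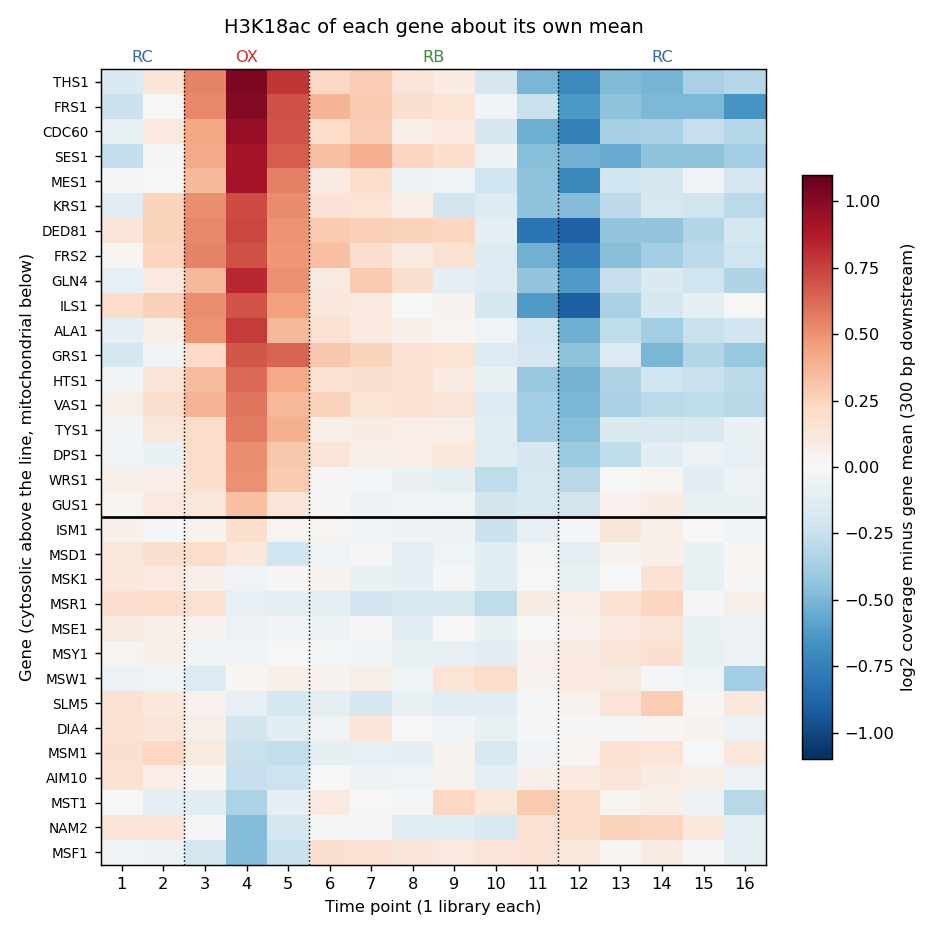
Log2 relative coverage of each gene minus its own mean over the series (colour), with the 16 time points in columns and the genes in rows, cytosolic above the black line and mitochondrial below it, each ordered by the OX difference. The red columns of the cytosolic block are time points 3 to 5, where 17 of 18 genes lay above all their other time points, and no such block appears among the mitochondrial genes.

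Each phase was then compared with the mean of the other 2 on the log2 scale with limma over 5713 genes, calling a gene at a Benjamini-Hochberg adjusted p under 0.05. In OX, 18 of 18 cytosolic genes and 0 of 14 mitochondrial genes were higher, where 31.4% of all genes tested were. No cytosolic gene was lower, and 4 of 14 mitochondrial genes were (MSF1, NAM2, MST1 and AIM10), where 14.6% of all genes were. The other 10 mitochondrial genes were not called. The median OX difference was 0.68 in the cytosolic group (0.24 to 0.95), -0.06 in the mitochondrial group (-0.38 to 0.11) and 0.06 over all genes. Because the libraries were scaled to their nuclear mean, the genome-wide split depended on the scaling, with 1792 genes higher and 832 lower as reported, 1416 and 1440 with median-of-ratios scaling, and 1206 and 1670 with quantile normalization. Under those 2 scalings the count of mitochondrial genes lower in OX became 7 and 10, and without time point 4 it was 1 (MSF1), while 15 to 18 cytosolic genes stayed called in OX under every setting run.

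In 17 of 18 cytosolic genes every OX time point lay above all 13 others, a pattern seen in 17.2% of all genes, the exception being GRS1. The opposite, every OX time point below all others, held for MSF1 alone among the 32 and for 1.52% of all genes. A moderated F test over the 3 phases called 18 of 18 cytosolic and 7 of 14 mitochondrial genes, against 64.1% of all genes. A cubic polynomial in the time point, which uses no phases, called 18 of 18 and 8 of 14, against 64.2%.

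**Figure D3:**
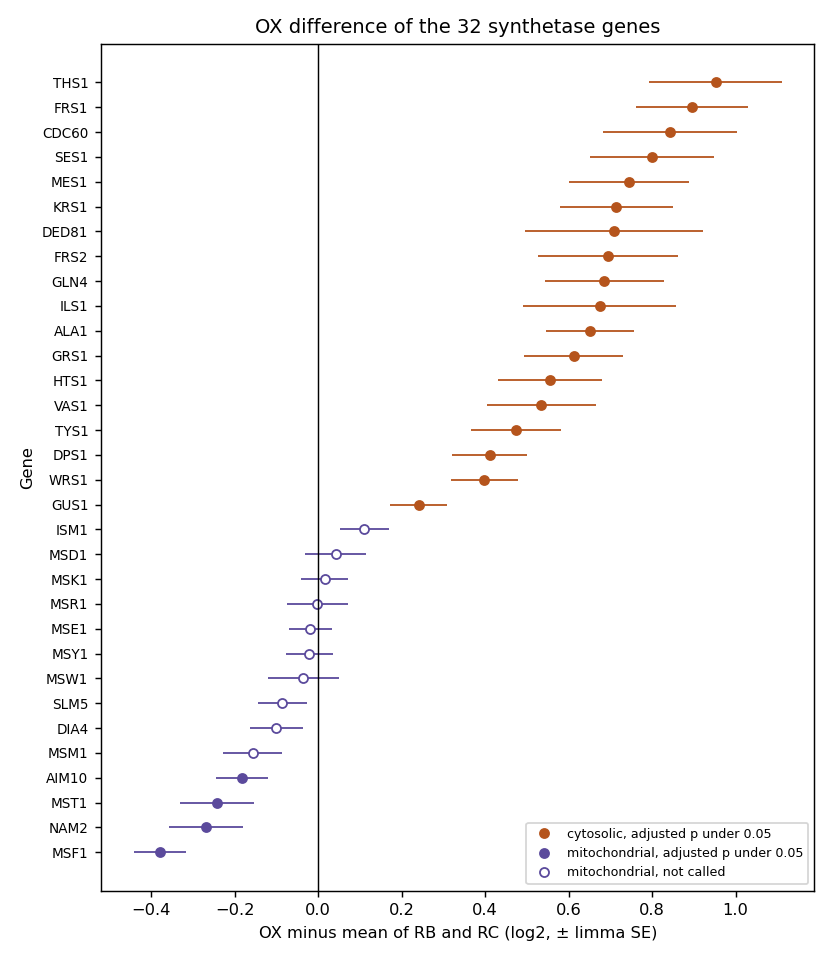
OX minus the mean of RB and RC for each of the 32 genes (x axis, log2 of relative coverage plus 0.1) with the limma standard error, cytosolic genes above mitochondrial ones, filled where the adjusted p was under 0.05. The 18 cytosolic values run between 0.24 (GUS1) and 0.95 (THS1), and the 14 mitochondrial values between -0.38 (MSF1) and 0.11 (ISM1), so the groups do not overlap.

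Among the cytosolic genes, THS1 (YIL078W, chrIX:212499-214703 in R64), the threonyl-tRNA synthetase, showed the largest OX difference. Its relative coverage was 2.26, 3.19 and 2.68 at the 3 OX time points, against 1.04, 1.65 and 1.86 (lowest, median and highest) in RB and 0.894, 1.16 and 1.68 in RC. The OX difference was 0.95 ± 0.16 (SE, adjusted p = 0.000244), and the OX values did not overlap those of the other phases. CDC60 (YPL160W, chrXVI:246990-250262), the cytosolic leucyl-tRNA synthetase, had 2.03, 2.98 and 2.45 in OX, against 0.990, 1.57 and 1.80 in RB and 0.841, 1.17 and 1.60 in RC. Its OX difference was 0.84 ± 0.16 (adjusted p = 0.000656), again with no overlap.

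FRS1 and FRS2 encode the beta and alpha subunits of the cytosolic phenylalanyl-tRNA synthetase, which works as a tetramer of both. FRS1 (YLR060W, chrXII:260979-262766) had 2.29, 3.26 and 2.60 in OX, against 1.30, 1.76 and 2.05 in RB and 0.962, 1.08 and 1.56 in RC. FRS2 (YFL022C, chrVI:93499-95010) had 2.89, 3.23 and 2.75 in OX, against 1.32, 2.15 and 2.48 in RB and 1.12, 1.58 and 2.32 in RC. Both subunit genes were higher in OX, by 0.90 ± 0.13 (adjusted p = 0.000102) for FRS1 and 0.69 ± 0.17 (adjusted p = 0.00360) for FRS2, and both peaked at time point 4. The levels of FRS2 at time points 1 and 2, 1.98 and 2.32, lay above those of FRS1, 1.32 and 1.56.

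SES1 (YDR023W, chrIV:489508-490896), the cytosolic seryl-tRNA synthetase, had 1.93, 2.77 and 2.33 in OX, against 1.00, 1.67 and 1.92 in RB and 0.941, 1.03 and 1.41 in RC. Its OX difference was 0.80 ± 0.15 (adjusted p = 0.000521), and its RC difference of -0.76 ± 0.12 was the second lowest of the group after the -0.85 ± 0.11 of FRS1. GRS1 (YBR121C, chrII:481364-483367), the dual glycyl-tRNA synthetase, had 1.80, 2.54 and 2.47 in OX, against 1.35, 1.74 and 1.92 in RB and 1.07, 1.22 and 1.50 in RC. Its time point 3, at 1.80, fell within the RB range, which is why GRS1 was the 1 cytosolic gene with overlap, and its OX difference was still called (0.61 ± 0.12, adjusted p = 0.000721).

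GUS1 (YGL245W, chrVII:39023-41149), the glutamyl-tRNA synthetase of the cytosol, showed the smallest OX difference of the group. Relative coverage at GUS1 was 2.25, 2.61 and 2.26 in OX, against 1.78, 1.98 and 2.07 in RB and 1.77, 2.11 and 2.23 in RC. The difference was 0.24 ± 0.07 (adjusted p = 0.00918) and was no longer called without time point 4 (0.17, adjusted p = 0.117) or with quantile normalization (0.10, adjusted p = 0.0665). GUS1 stayed well marked throughout the cycle, its lowest value of 1.77 being above the OX value of DPS1 at time point 5, 1.67.

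The remaining cytosolic genes fell between these. OX differences of 0.67 to 0.74 were found for MES1 (methionyl), KRS1 (lysyl), DED81 (asparaginyl), GLN4 (glutaminyl) and ILS1 (isoleucyl), and 0.40 to 0.47 for TYS1 (tyrosyl), DPS1 (aspartyl) and WRS1 (tryptophanyl). The calls of DED81 (adjusted p = 0.0902) and ILS1 (adjusted p = 0.0648) were lost without time point 4. The 4 dual genes, ALA1 (alanyl), GRS1, HTS1 (histidyl) and VAS1 (valyl), were all called higher in OX (median 0.58), and the other 14 were called with a median of 0.70. All 4 peaked at time point 4, as the other cytosolic genes did, although their products also serve the mitochondria.

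In RC, 16 of 18 cytosolic genes were lower, all but GUS1 and WRS1, with a median difference of -0.48, where 25.3% of all genes were lower. The RC call of ILS1 (adjusted p = 0.0404) was lost under 12 of the alternatives tried, those of DPS1, FRS2, MES1 and TYS1 in the upstream window, and the count was 13 to 17 over all alternatives. In RB none of the 18 was higher and GUS1 and WRS1 were lower, where 6.07% of all genes were higher and 23.4% lower, and the median difference was -0.15 against -0.08 over all genes. The RB call of GUS1 was lost under 9 of the alternatives tried, and WRS1 passed the threshold in RC under several, so these calls rest on values near it.

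KRS1 (YDR037W, chrIV:525440-527215), the cytosolic lysyl-tRNA synthetase, had far less coverage than any other member, with a mean of 8.28 reads per base downstream of the start codon and 0.717 upstream, where the gene was left untested. Of the 15 bins of 20 bp in each region, 7 downstream and 11 upstream averaged under 0.5 reads per base, while 0 of 465 such bins in either region did so in the other 31 members. Reads mapping to several places had been discarded by the authors, and neither this nor any other cause of the low coverage was tested. Averaged over the whole 300 bp, uncovered bases included, KRS1 had 0.399, 0.477 and 0.402 in OX, against 0.158, 0.242 and 0.291 in RB and 0.151, 0.200 and 0.316 in RC. Its level cannot be set beside those of the other genes, and its OX difference was 0.71 ± 0.14 (adjusted p = 0.000620).

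Within the mitochondrial group, MSF1 (YPR047W, chrXVI:657529-658938), the mitochondrial phenylalanyl-tRNA synthetase, had the lowest OX difference. MSF1 had 1.20, 0.962 and 1.15 in OX, against 1.50, 1.54 and 1.57 in RB and 1.28, 1.37 and 1.51 in RC. It was lower in OX (-0.38 ± 0.06, adjusted p = 0.000233) and higher in RB (0.30 ± 0.05, adjusted p = 0.00113), with all OX values below all others. MST1 (YKL194C, chrXI:77258-78646), the mitochondrial threonyl-tRNA synthetase, had 1.11, 0.939 and 1.12 in OX, against 1.21, 1.33 and 1.51 in RB and 0.968, 1.22 and 1.41 in RC.

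MST1 was likewise lower in OX (-0.24 ± 0.09, adjusted p = 0.0364) and higher in RB (0.23 ± 0.07, adjusted p = 0.0272), but its OX values overlapped those of RC. MSF1 and MST1 were the only 2 of 14 mitochondrial genes higher in RB, MSR1 (arginyl) was the 1 lower there, where 6.07% of all genes were higher and 23.4% lower, and the group median in RB was -0.06. The RB call of MSR1 was lost with median-of-ratios scaling (adjusted p = 0.0835), with quantile normalization (0.186), in a window shifted further into the gene (0.056) and without time point 3 or 10. The OX call of MST1 was lost without time point 4 (adjusted p = 0.253) or 9 (0.0522). Its RB call was lost without time point 4 (adjusted p = 0.0784), 9, 10 or 11. It was also lost with a depth covariate (0.0546) and with time point 11 placed in RC (0.119).

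NAM2 (YLR382C, chrXII:882067-884751), the mitochondrial leucyl-tRNA synthetase, is also known for its part in splicing mitochondrial introns. Its relative coverage was 1.72, 1.22 and 1.51 in OX, against 1.53, 1.65 and 1.95 in RB and 1.60, 1.92 and 2.09 in RC. NAM2 was higher in RC (0.27 ± 0.07, adjusted p = 0.00568) and lower in OX (-0.27 ± 0.09, adjusted p = 0.0208), the second of these lost without time point 4 (-0.15, adjusted p = 0.256). In all, 5 of 14 mitochondrial genes were higher in RC, where 23.0% of all genes were, namely NAM2, MSM1 (methionyl), MSR1, SLM5 (asparaginyl) and AIM10 (prolyl, by similarity). Their RC differences were 0.17 to 0.27, and none of the 14 was lower in RC.

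The mitochondrial genes with the largest OX differences were not called. ISM1 (YPL040C, chrXVI:475993-479001), the mitochondrial isoleucyl-tRNA synthetase, had 1.69, 1.89 and 1.68 in OX, against 1.38, 1.57 and 1.68 in RB and 1.61, 1.64 and 1.81 in RC (difference 0.11 ± 0.06, adjusted p = 0.125). MSD1 (YPL104W, chrXVI:355700-357676), the aspartyl enzyme, had 2.40, 2.27 and 1.77 in OX, against 1.91, 2.02 and 2.06 in RB and 1.93, 2.14 and 2.36 in RC (0.04 ± 0.07, adjusted p = 0.663). MSK1 (YNL073W, chrXIV:488386-490116), the lysyl enzyme, had 2.44, 2.28 and 2.37 in OX, against 2.14, 2.27 and 2.41 in RB and 2.20, 2.37 and 2.63 in RC (0.02 ± 0.06, adjusted p = 0.837). All 3 overlapped between phases, and MSK1 varied by a factor of only 1.22 over the cycle.

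MSE1 (glutamyl), MSY1 (tyrosyl), MSW1 (tryptophanyl) and DIA4 (seryl) passed in no phase, with OX differences of -0.10 to -0.02. The groups overlapped in level. Mean coverage over the series was 39.3 to 75.7 reads per base in the mitochondrial group (median 59.2) and 8.28 to 68.9 in the cytosolic group (median 56.1), with a median of 55.4 over all genes.

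A set of 13 pairs, with FRS1 and FRS2 each set against MSF1, put a cytosolic gene beside the mitochondrial gene for the same amino acid. In every pair the log2 ratio of the cytosolic to the mitochondrial gene was higher in OX than the mean of RB and RC, by 0.26 (GUS1 and MSE1) to 1.28 (FRS1 and MSF1), with a median of 0.80 downstream and 0.72 upstream. The upstream median includes the pair of KRS1 and MSK1 (0.25), although KRS1 averaged only 0.717 reads per base there and was left untested. No test was run on these ratios. Downstream, every cytosolic OX difference exceeded every mitochondrial one, so any pairing would give a positive value. The sign in all 13 pairs is therefore no result beyond the difference between the groups. In 8 of 13 pairs every OX ratio lay above every ratio of the other phases, where 17 of 18 cytosolic genes showed this by themselves. The 8 include both pairs that share MSF1, and the share over other pairings was not computed.

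For phenylalanine, the FRS1 to MSF1 log2 ratio was 1.22 ± 0.400 in OX, 0.14 ± 0.221 in RB and -0.26 ± 0.269 in RC (mean and SD over 3, 6 and 7 time points). For threonine, the THS1 to MST1 ratio was 1.27 ± 0.356 in OX, 0.18 ± 0.392 in RB and -0.02 ± 0.380 in RC. For leucine, the CDC60 to NAM2 ratio was 0.70 ± 0.500 in OX, -0.18 ± 0.373 in RB and -0.64 ± 0.312 in RC. In each of these 3 pairs the mitochondrial gene was called lower in OX and the cytosolic gene higher. WRS1 was above MSW1 at 16 of 16 time points, and DPS1 was above MSD1 at 0 of 16. In both of these pairs the OX ratios overlapped those of the other phases.

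**Figure D4:**
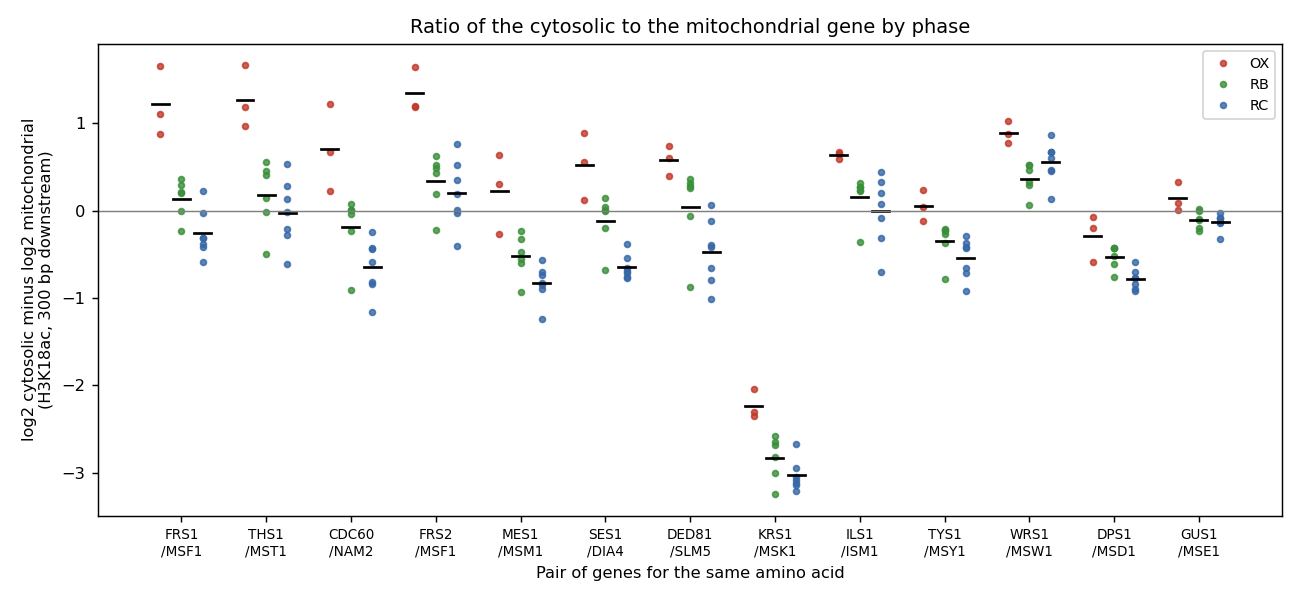
Log2 ratio of relative coverage, cytosolic over mitochondrial gene (y axis), for the 13 pairs that charge the same amino acid (x axis), with a point for each time point and a black bar for the mean of the phase, in the order OX, RB and RC within each pair. The OX mean lies above the RB and RC means in all 13 pairs, and the KRS1 pair sits lowest because of the low coverage of KRS1. An OX mean above the average of the other phases followed from the groups not overlapping in OX difference.

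Upstream of the start codon, 17 cytosolic genes were tested (all but KRS1) and 17 of 17 were higher in OX, against 24.6% of 5755 genes, with a median difference of 0.54. Of the 14 mitochondrial genes, 2 were higher in OX upstream, ISM1 (0.24 ± 0.07, adjusted p = 0.00774) and MSD1 (0.21 ± 0.07, adjusted p = 0.0297), and 6 were lower (NAM2, MSE1, MSF1, MSM1, MST1 and AIM10), where 16.6% of all genes were lower. In RB, MSF1 and MST1 were again higher, where 4.19% of all genes were, 4 cytosolic and 3 mitochondrial genes were lower, and so were 34.1% of all genes.

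The upstream windows are partly shared with other genes. They overlapped a neighbour's coding region in 6 of 18 cytosolic and 9 of 14 mitochondrial genes, ISM1 and MSD1 among them. The neighbours of these 2, YPL039W and SYH1, lie in the opposite orientation and were themselves higher in OX downstream of their own start codons (0.26 and 0.44). The upstream calls of ISM1 and MSD1 therefore cannot be told apart from signal at those neighbours. Among the cytosolic genes, the windows of GUS1 and VAS1 overlap the coding regions of RAI1 and DRN1. Both neighbours were also higher in OX (0.39 and 0.61), RAI1 in the opposite and DRN1 in the same orientation. The same limit holds for the upstream call of GUS1. The window of VAS1 overlaps the end of DRN1, whereas the OX difference of DRN1 was measured at its start. Whether signal at the end of DRN1 contributes to the upstream call of VAS1 was not tested.

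A divergent neighbour stood upstream of 14 cytosolic and 6 mitochondrial genes, with a gap under 600 bp in 7 and 6 of them. DED81 (YHR019C) shares a 437 bp gap with YHR020W, the cytosolic prolyl-tRNA synthetase gene, so a single intergenic stretch separates 2 synthetase genes. DED81 had 2.91, 3.35 and 2.83 in OX, against 1.09, 2.36 and 2.44 in RB and 1.02, 1.57 and 2.38 in RC, and was higher in OX by 0.71 ± 0.21 (adjusted p = 0.0131). YHR020W averaged 3.04 ± 0.291 in OX, 1.81 ± 0.546 in RB and 1.40 ± 0.532 in RC, a difference of 0.96 ± 0.27 (adjusted p = 0.00884). THS1 stands in the same way beside AIR1, which was also higher in OX (0.97). The upstream neighbour was called higher in OX for 6 of 17 cytosolic genes whose neighbour was tested and for 7 of 14 mitochondrial genes, where 31.4% of all genes were.

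The OX difference of the cytosolic genes was larger at gene starts than inside the genes. Averaged over the cytosolic genes, coverage in OX peaked at 2.67 times the nuclear mean in the 20-bp bin centred 90 bp inside the gene, against 1.88 in RB and 1.69 in RC, both at 30 bp. The mitochondrial profile peaked at 2.00 in OX, 1.97 in RB and 2.19 in RC, between 70 and 90 bp. The ratio of OX to the mean of the other phases in the cytosolic group was 1.37 between -600 and -300 bp, 1.49 between -300 bp and the start codon, 1.57 over the first 300 bp, 1.45 over the next 300 bp and 1.03 between 600 and 1000 bp. In the mitochondrial group the same ratios were 1.02, 0.949, 0.945, 0.877 and 0.837.

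**Figure D5:**
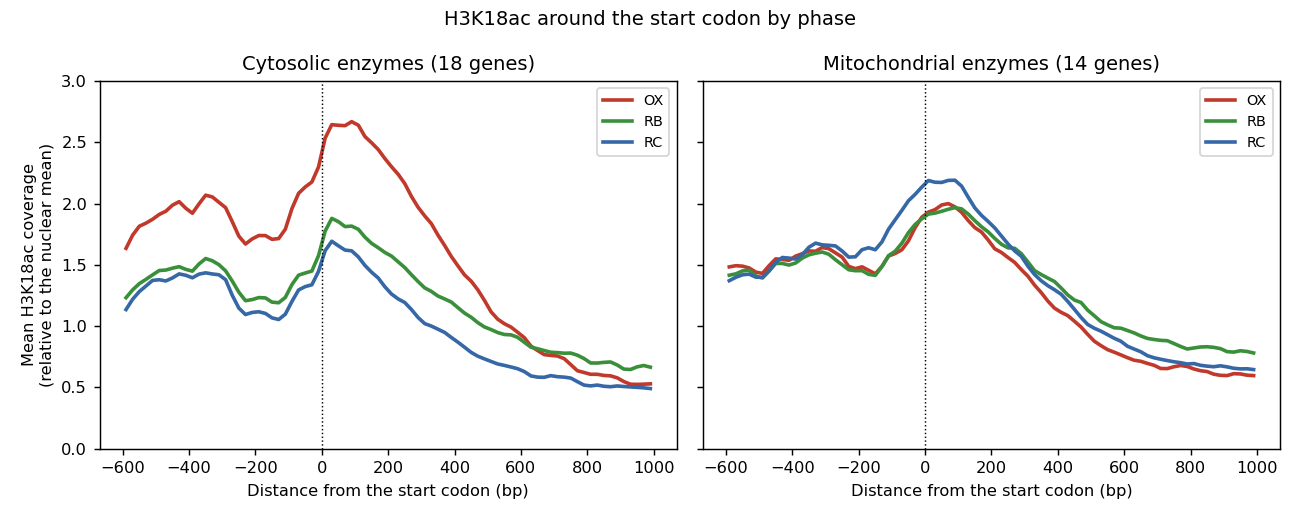
Mean relative H3K18ac coverage (y axis) by distance from the start codon in 20-bp bins (x axis, coding region to the right), averaged over the genes of each group and the time points of each phase. In the cytosolic panel the OX line peaks at 2.67 above RB (1.88) and RC (1.69) and meets RB beyond 600 bp, and in the mitochondrial panel the lines lie close together, with RC highest near the start codon (2.19).

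Coverage of the last 300 bp of the coding region gave the same contrast. The start exceeded the end in 18 of 18 cytosolic genes (median log2 difference 1.07) and in 13 of 14 mitochondrial genes (1.08), with 1.03 over the 3732 tested genes longer than 900 bp. At the gene end the OX difference had a median of -0.09 in the cytosolic group and -0.15 in the mitochondrial group, with -0.17 over those 3732 genes. It was smaller than at the start in 17 of 18 cytosolic genes, in 10 of 14 mitochondrial genes and in 2689 of the 3732, so a smaller difference at the end was shared by most genes. The cytosolic exception was WRS1, with 0.81 at its end against 0.40 at its start. The mitochondrial exceptions were MSF1, MSK1, MSM1 and DIA4. MSF1, the mitochondrial gene with no excess at its start (-0.06), had an OX difference of 0.41 at its end and -0.38 at its start. MSK1, MSM1 and DIA4 had 0.07, 0.07 and 0.09 at their ends, against 0.02, -0.16 and -0.10 at their starts. These end values were not tested.

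The cytosolic values came close to the ceiling where they were highest. At time point 4, 7 of 18 cytosolic genes averaged at least 92 of the possible 102 reads per base, up to 99.1 in DED81, whereas 0 of 14 mitochondrial genes did and their highest was 68.8. At time point 12 the highest mitochondrial gene had 84.5 and the highest cytosolic gene 58.9, so mitochondrial values in RC were not free of compression. Undoing the compression with a formula for 1 read per position and strand gave a median cytosolic OX difference of 1.15 in place of 0.68. The mitochondrial median became -0.18 in place of -0.06.

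Genes of the same pathway outside the 32 gave the following counts. Of 5 further synthetase genes, 4 were higher in OX, where 31.4% of all genes were, namely YHR020W, CRS1 (cysteinyl, 0.70 ± 0.14), YDR341C (arginyl, 0.40) and ARC1, a cofactor that binds the methionyl and glutamyl enzymes (0.40). GRS2, a second glycyl-tRNA synthetase gene, was lower (-0.24 ± 0.08, adjusted p = 0.0208). GRS2 averaged 1.55 ± 0.320 in OX, 1.72 ± 0.100 in RB and 1.93 ± 0.0884 in RC, unlike its paralogue GRS1, which was higher in OX, although this contrast was not itself tested.

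Of 52 nuclear genes for tRNA modification and processing, 43 were higher in OX and none was lower, where 31.4% of all genes were higher and 14.6% lower, and the median difference was 0.49 against 0.06 over all genes. TRM11, a subunit of a tRNA guanosine methyltransferase, had 2.77 ± 0.521 in OX, 0.964 ± 0.184 in RB and 1.01 ± 0.359 in RC (1.42 ± 0.21), and PUS1, a tRNA pseudouridine synthase, gave 1.31 ± 0.17. The lowest was SEN34, a subunit of the tRNA splicing endonuclease, at -0.16 ± 0.12 (adjusted p = 0.284).

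Of 15 genes for charging and translation in mitochondria, 3 were higher in OX and 3 lower, where 31.4% of all genes were higher and 14.6% lower, so these counts are near the background. The median was -0.06. The 3 higher were GTF1 (0.47 ± 0.10), and SLM3 (0.41 ± 0.09) and MTO1 (0.40), which modify mitochondrial tRNAs. The 3 lower were MEF2, a mitochondrial elongation factor (-0.32 ± 0.10), AIM23 and PET112 (-0.22 each). ARC1, YDR341C, MTO1, AIM23 and PET112 were named after their values were seen.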

How the data were processed

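H3K18ac coverage of 16 libraries, 1 per time point, was used. The signal values deposited by the authors are reads over each base (12157105 positions, 17 chromosomes). Per the study's methods, reads were trimmed with Trimmomatic 0.32 and mapped to the Ensembl release of the yeast genome with Bowtie (the submitters' processing notes name STAR), multimapped reads discarded, duplicates removed with SAMtools and coverage computed with bedtools genomecov. As deposited, the values were neither depth-corrected nor divided by H3. Here they were scaled to each library's nuclear mean but, unlike in the study, not divided by H3. Duplicate removal leaves the ceiling of 102 reads per base.

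Mean coverage of 300 bp either side of the start codon (RefSeq annotation, R64, coding regions without UTRs) was divided by the nuclear mean and transformed as log2(value + 0.1), which understates changes of low genes. Genes averaging 5 reads per base or more were tested in limma 3.58.1 (R 4.3.3), trended prior, each phase against the mean of the other 2, Benjamini-Hochberg over all genes. Fold differences are on that scale. The script was tested on simulated data. Python 3.11.15, numpy 2.4.6, pandas 2.3.3 and matplotlib 3.10.9 were used otherwise.

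Phases come from the study's sampling diagram, not the labels. Members and lists were chosen with earlier results of these data known. All 32 members are named, and values by phase are given for FRS1, FRS2 and, in each group, the 3 largest OX, 2 largest RB, 1 largest RC and 1 lowest OX difference. KRS1 and DED81 were added after their values were seen. For each other list, the 2 largest and 1 lowest OX differences are named. Alternatives were other windows, scalings, pseudocounts, coverage minimums, a depth covariate, a ceiling correction, other phase assignments and leaving out each time point. No sequences are printed.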

Additional observations from a re-analysis of the deposited data

Results flagged for a closer look

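Within a phase, single time points that stood far from the rest by Dixon's criterion were looked for in the RB and RC values of the 32 genes and of their groups, and 5 of 68 sets of time points were found, where chance gives about 1 in 20. DED81 had a relative coverage of 1.09 at time point 11 in RB, against 1.84 to 2.44 at the other RB time points. MES1 had 0.781 at time point 12 in RC, against 1.14 to 1.35. Both values lie at the RB to RC passage, where the cytosolic median was lowest. NAM2 had 1.60 and MSW1 had 1.00 at time point 16 in RC, against 1.89 to 2.09 and 1.27 to 1.45 at the other RC time points. DIA4 had 1.87 at time point 7 in RB, against 1.59 to 1.69.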

How the results depend on the processing

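The median OX difference stayed positive for the cytosolic group (0.45 to 1.15) and negative for the mitochondrial group (-0.18 to -0.04) under all 29 alternatives, and 15 to 18 cytosolic genes were called higher. The cytosolic median was 0.45 with a pseudocount of 1 and 1.15 with the ceiling correction. The mitochondrial median was -0.18 with quantile normalization and with the ceiling correction. Mitochondrial genes higher in OX numbered 2 in the upstream window, and those lower numbered 7 with median-of-ratios scaling and 10 with quantile normalization. Leaving out 1 time point in turn gave 1 to 6 of them lower, the 1 without time point 4. Without time point 4, 886 genes of all tested were higher in OX and 209 lower. MSK1 changed sign with quantile normalization (-0.12, adjusted p = 0.012). Scaling moved the median of all genes, which was 0.06 as reported, -0.02 with median-of-ratios scaling and -0.04 with quantile normalization. Relative to it the cytosolic median was 0.62, 0.61 and 0.56 higher and the mitochondrial difference was -0.13, -0.13 and -0.14. Causes were not tested. No paired analysis was possible because each time point has 1 library.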
